A study of Rattus norvegicus with 36 samples.

Results

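Livers of rats given the 3 highest doses of decabromodiphenyl ether (decaBDE) were compared, as 1 pool of 18 arrays, with livers of rats given vehicle or the lowest dose, as 1 pool of 12 arrays. The pools were set by dose alone, and they hold 30 of the 36 arrays of the series; the 6 arrays at 0.959 mg/kg between them were left out. All groups were male Harlan Sprague Dawley rats, 7 weeks old at the start, dosed by gavage in corn oil at 5 ml/kg body weight on 5 consecutive days. The low pool holds 6 arrays of corn oil alone (vehicle) and 6 of 0.1 mg/kg decaBDE, and the high pool 6 arrays each of 9.59, 95.9 and 959 mg/kg. Left-lobe liver, sampled 1 day after dosing ended, was measured on Affymetrix 3′ expression arrays. The pooled comparison was made to look for small shifts, shared by the 3 doses, that a comparison of 6 arrays with 6 at a single dose does not call.

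DecaBDE is a heavily brominated diphenyl ether used as a flame retardant, and it is fat-soluble. The liver answers many such foreign compounds through receptors that switch on genes. The nuclear receptors CAR and PXR switch on enzymes of the Cyp2b, Cyp2c and Cyp3a subfamilies together with conjugating enzymes and export pumps. The aryl hydrocarbon receptor (AhR), which is not a nuclear receptor, switches on Cyp1a1 and Cyp1a2. NRF2 controls antioxidant and glutathione genes, and PPARA controls fatty acid oxidation genes such as the Cyp4a hydroxylases.

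Values are log2 RMA signals, so a difference of 1 is a doubling, and 31042 probe sets were tested. Array medians lay between 5.12 and 5.21, and the 30 arrays correlated with r from 0.988 to 0.996 (over probe sets, which are not independent of each other). Replicate 6 of the 0.1 mg/kg group had the lowest estimated array weight (0.561) and was the most distant array along the leading principal component (10.4% of the variance); results without it are given where they differ. The difference between 3′ and 5′ actin probe sets, a sign of RNA integrity, averaged 1.20 ± 0.113 (SD, n = 12) in the low pool and 1.17 ± 0.0814 (SD, n = 18) in the high pool (permutation test, two-sided, p = 0.396). The 18 measured hepatocyte markers averaged 13.44 (median array) in both pools. The labels do not state that each array is a separate rat, so p-values measure the spread between arrays.

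More genes rose than fell in the high pool, and most of the calls were small. A probe set was called where its limma p-value, adjusted by Benjamini-Hochberg over all 31042, was under 0.05. Called probe sets numbered 135, or 0.435% of those tested; 112 rose (0.361%) and 23 fell (0.0741%). By genes, taking the brightest probe set of each of 14217 genes with 1 symbol, 83 rose (0.584%) and 16 fell (0.113%). Each high dose against vehicle, 6 arrays with 6 and the spread estimated from all 36, called 36 probe sets at 9.59 mg/kg (0.116%), 28 at 95.9 mg/kg (0.0902%) and 34 at 959 mg/kg (0.110%), and 58 at any of the 3 (0.187%). With each dose and vehicle fitted alone, 28 were called at any of the 3, and pooled-only calls numbered 111 in place of the 88 described next. These comparisons share arrays with the pooled one, so the counts describe where thresholds fell and are not separate evidence.

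Of the 135 probe sets, 47 (0.151% of all tested) were also called at a single dose, and 88 (0.283%) were called by pooling only. The 88 comprised 66 rises (0.213%) and 22 falls (0.0709%), while the 47 comprised 46 rises (0.148%) and 1 fall (0.00322%), adenylate kinase 4 (Ak4). With each array centred on its own median, the split of the pooled-only calls was 84 rises and 13 falls. The pooled-only shifts had absolute log2 differences from 0.11 to 1.18 with a median of 0.24. Of these, 50 were under 0.25 and 81 were under 0.5. The median rise among them was 16.2%. Their smallest adjusted p at a single dose ran from 0.0507 to 0.611, with a median of 0.248. The standard error of the pooled difference had a median of 0.0505 in these probe sets, against 0.0798 for a single dose. At the pooled threshold, glucosamine (UDP-N-acetyl)-2-epimerase (Gne), a sialic acid synthesis enzyme, lay just inside with a log2 difference of -0.35 (adjusted p = 0.0489), and Tinf2, a telomere protein, just outside with 0.25 (adjusted p = 0.0513).

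**Figure D1:**
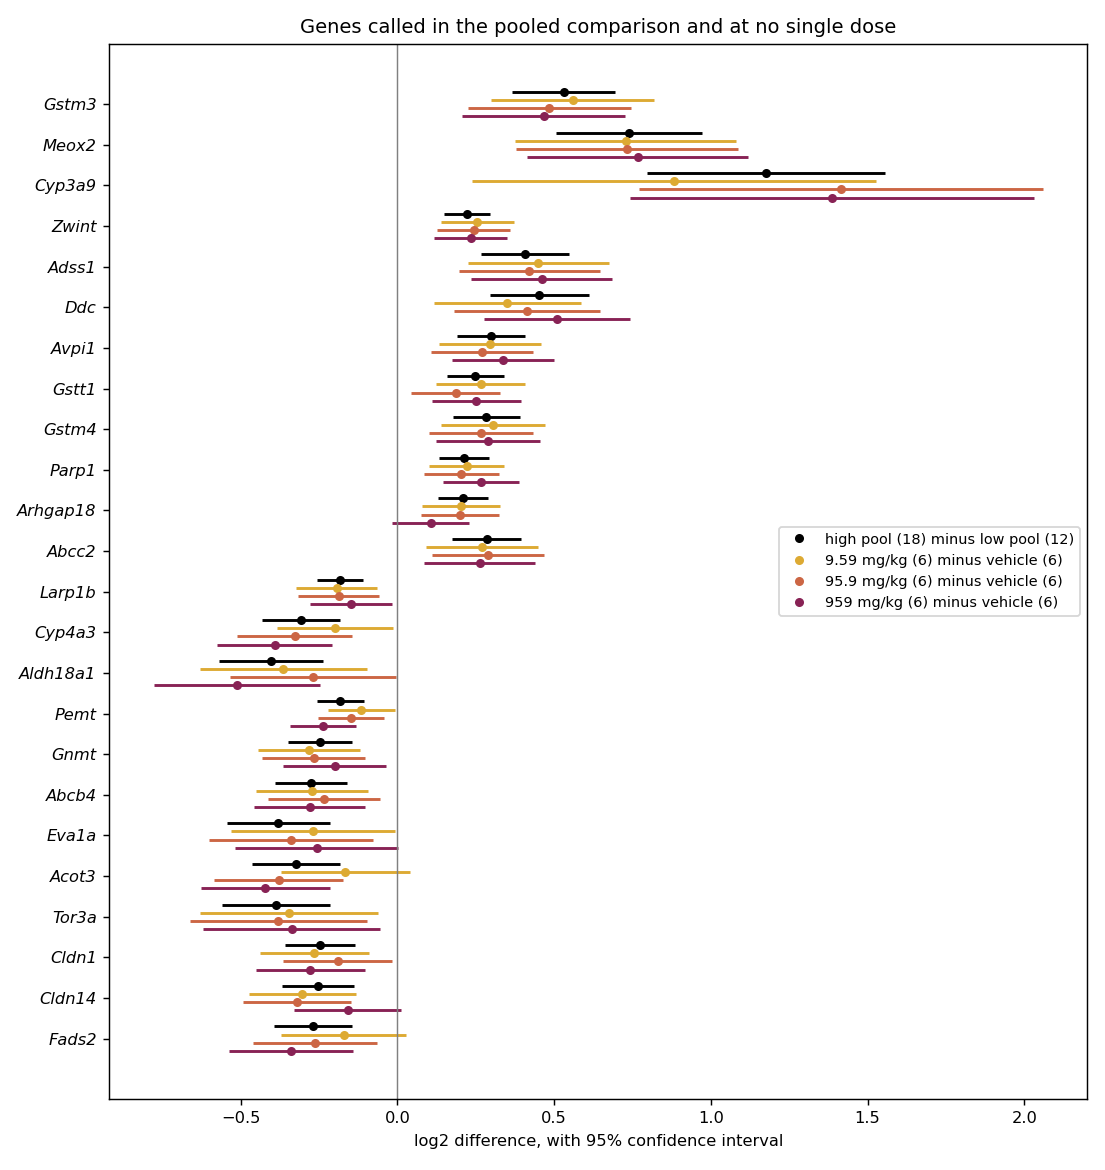
Log2 differences (x axis) with 95% confidence intervals for the 12 rising and 12 falling genes (y axis) with the smallest p among those called by pooling only; black is the high pool minus the low pool and the 3 colours are single doses minus vehicle. The black intervals are the narrowest for each gene, and they reach from 0.80 to 1.56 for Cyp3a9 and from -0.26 to -0.11 for Pemt.

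Rises called by pooling only included 4 glutathione S-transferases, enzymes that join glutathione to reactive compounds. Gstm3 ran from 5.80 to 6.49 (median 6.29) in the low pool and from 6.45 to 7.18 (median 6.72) in the high pool. All but 2 of the 18 high arrays (16) lay above every low array. The log2 difference was 0.53 (SE 0.0807, limma adjusted p = 0.000302), a 1.45-fold rise, with single-dose differences of 0.56, 0.48 and 0.47 and adjusted p from 0.0775 to 0.255. Gstm4 ran from 8.51 to 8.88 (median 8.64) at low and from 8.75 to 9.33 (median 8.93) at high dose, with 14 of 18 arrays above the low pool and a difference of 0.28 (adjusted p = 0.00335). Gstt1 rose by 0.25 (adjusted p = 0.00245), with 9 of 18 arrays above the low pool, and Gstt3 by 0.41 (adjusted p = 0.00844). The pools overlapped in each of these genes. Gstk1, Gsta4 and Gstm1 rose too and were also called at a single dose. Of 20 measured genes of the family, gathered by symbol after their values were seen, 7 rose and 0 fell, beside 0.584% and 0.113% of all genes; Gsta1, Gstz1 and Gsto1 lay within 0.02 of 0 and Gstp3 was at -0.23 (adjusted p = 0.371). Members of a subfamily are close in sequence, and how far their probe sets measure each other was not tested. In whole liver, more RNA per cell and more cells of a type cannot be told apart.

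Of the CAR and PXR targets called by pooling only, Cyp3a9, Abcc2 and Cyp3a2 encode 2 P450 enzymes and a pump. Cyp3a9, a cytochrome P450 of the PXR-controlled subfamily, ran from 7.33 to 9.02 (median 8.11) in the low pool and from 8.24 to 10.28 (median 9.24) in the high pool. Its spread was wide in both pools, and 12 of 18 high arrays lay above all low arrays. The difference was 1.18 (SE 0.187, limma adjusted p = 0.000444), a 2.26-fold rise, and single-dose differences of 0.88, 1.41 and 1.39 had adjusted p of 0.397, 0.0765 and 0.0723. Abcc2, which exports conjugates into bile, ran from 10.05 to 10.62 (median 10.25) and from 10.34 to 10.76 (median 10.53). Only 5 high arrays lay above the low pool, and the difference was 0.28 (SE 0.0537, adjusted p = 0.0046). Cyp3a2, a male-specific P450, rose by 0.11 (adjusted p = 0.0412); that call was lost when any 1 of 17 of the 30 arrays was left out, with adjusted p up to 0.0863.

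Several further pooled-only rises belong to other functions. Meox2, a homeobox transcription factor, ran from 5.67 to 6.60 (median 6.01) at low and from 6.12 to 7.36 (median 6.69) at high dose, a difference of 0.74 (SE 0.114, limma adjusted p = 0.000336). High arrays above the whole low pool numbered 11. Zwint, a kinetochore protein, ran from 8.93 to 9.22 (median 9.10) and from 9.14 to 9.53 (median 9.30). It rose by 0.22 (adjusted p = 0.000558), with 15 of 18 arrays above the low pool. Adss1, a purine synthesis enzyme, ran from 6.52 to 7.43 (median 7.23) and from 7.36 to 7.97 (median 7.61), a rise of 0.41 with 16 arrays above the low pool. Ddc, the decarboxylase that makes dopamine and serotonin, rose by 0.45 (adjusted p = 0.00152). Parp1, the DNA-damage sensor that adds ADP-ribose chains, rose by 0.21 (adjusted p = 0.00415). Avpi1 rose by 0.30 and Arhgap18 by 0.21. Adss1, Ddc and Avpi1 each have another probe set that was not called, at 0.06, -0.07 and 0.17. The mean levels of these probe sets were 5.98, 5.00 and 6.56.

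**Figure D2:**
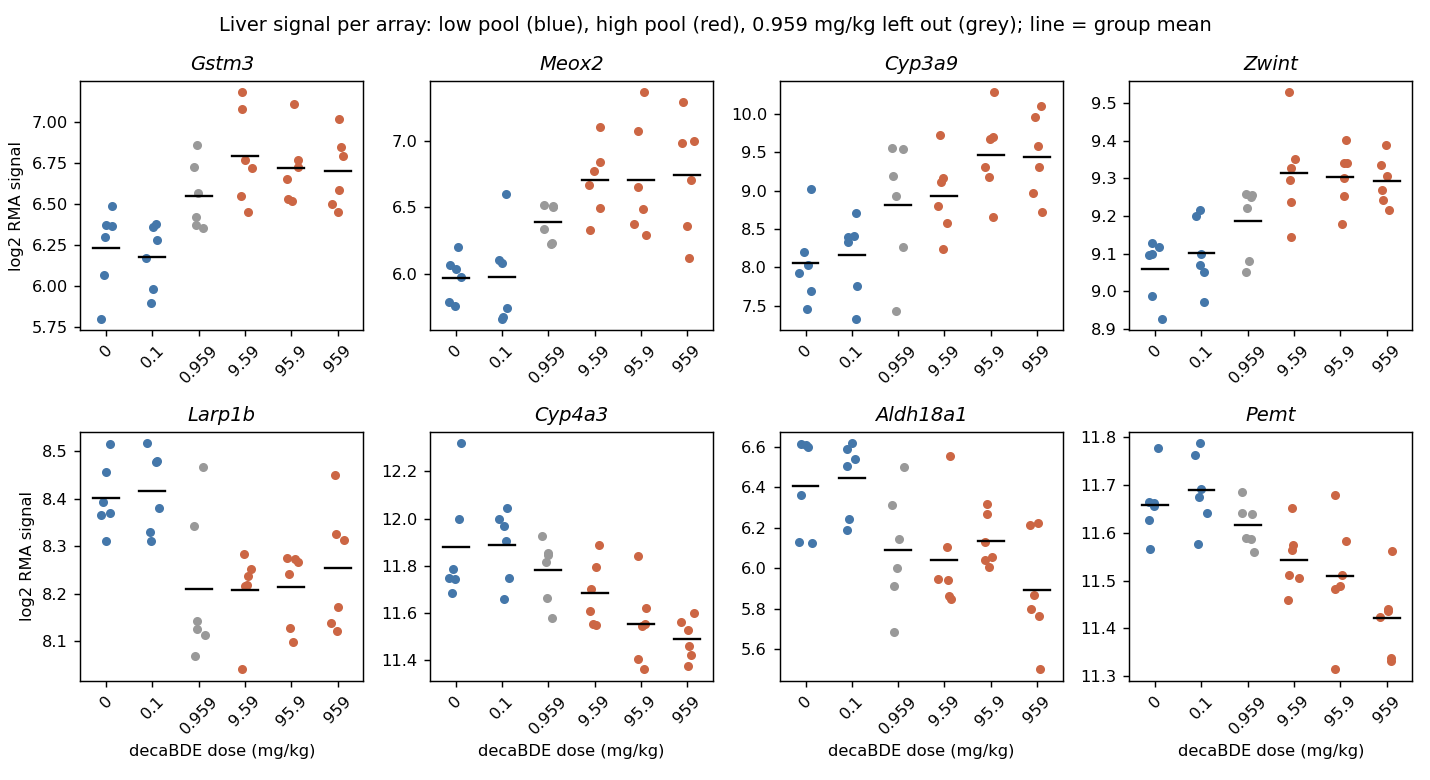
Log2 RMA signal (y axis) of every array by dose (x axis) for the 4 rising and 4 falling genes with the smallest p among those called by pooling only; blue points are the low pool, red points the high pool, grey points the dose left out, and lines group means. Gstm3 arrays of the low pool reach 6.49 and those of the high pool start at 6.45, and in each of the 8 genes the pools overlap.

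Gsr, which regenerates reduced glutathione, ran from 8.67 to 9.22 (median 8.79) at low and from 8.73 to 9.36 (median 9.13) at high dose. It rose by 0.29 (SE 0.0575, limma adjusted p = 0.00832), and 4 high arrays lay above the low pool. Blvrb, which reduces biliverdin, rose by 0.16 (adjusted p = 0.00832) and the acute-phase gene Crp by 0.19 (adjusted p = 0.0046). Gadd45b, a stress-induced gene, rose by 0.38 (adjusted p = 0.0151). Its arrays in the 2 pools lay between 4.42 and 5.48, where the median level of all probe sets was 5.16. Cyp4a8, a fatty acid hydroxylase, rose by 0.40 (adjusted p = 0.0229) on its brightest probe set and by 0.82 (adjusted p = 0.00832) on the other. The brightest was no longer called when vehicle replicate 3, 4 or 5 or 0.1 mg/kg replicate 5 was left out (adjusted p reached 0.0568). Akr7a3, an aldehyde reductase, was at 0.33 (adjusted p = 0.0402) and the mitotic motor Kif11 at 0.33 (adjusted p = 0.0449). These calls rested on many arrays: leaving out any 1 of 18 of the 30 arrays ended that of Akr7a3 (adjusted p reached 0.0865), and any 1 of 20 that of Kif11 (0.0934), 0.1 mg/kg replicate 6 among them (0.0558). The other Kif11 probe set, at 0.17, was not called (adjusted p = 0.397). Signals of the brightest Kif11 probe set were also low, from 4.2 to 5.3 in the pools.

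The falls called by pooling only included genes of phospholipid, methyl-group and fatty acid metabolism. With vehicle alone as the low pool, which has fewer arrays, 1 fall was called in place of 23, and 56 rises in place of 112. Pemt, Gnmt, Abcb4, Cyp4a3, Acot3, Fads2, Larp1b, Aldh18a1, Cldn1, Cldn14, Eva1a and Tor3a each lost their call there. Pemt, which makes phosphatidylcholine by methylating phosphatidylethanolamine, ran from 11.56 to 11.79 (median 11.66) in the low pool and from 11.31 to 11.68 (median 11.50) in the high pool. It fell by 0.18 (SE 0.0371, limma adjusted p = 0.0111), and 14 of 18 high arrays lay below every low array. Gnmt, which disposes of excess methyl groups from S-adenosylmethionine, ran from 11.94 to 12.38 (median 12.10) and from 11.72 to 12.28 (median 11.85). It fell by 0.25 (adjusted p = 0.0116), also with 14 arrays below the low pool. Abcb4, which moves phosphatidylcholine into bile, ran from 8.73 to 9.20 (median 8.90) and from 8.45 to 8.95 (median 8.68), and fell by 0.28 (adjusted p = 0.0125). The pools overlapped in all 3 of these genes.

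Cyp4a3, a fatty acid omega-hydroxylase and PPARA target, ran from 11.66 to 12.32 (median 11.85) at low and from 11.36 to 11.89 (median 11.55) at high dose. It fell by 0.31 (SE 0.0612, limma adjusted p = 0.00834), with 14 high arrays below the low pool. Acot3, a peroxisomal acyl-CoA thioesterase, fell by 0.32 (adjusted p = 0.0181), with 7 arrays below. Fads2, the delta-6 fatty acid desaturase, fell by 0.27 (adjusted p = 0.0299). Centring each array on its median ended the call, as did leaving out vehicle replicate 2, 4 or 6 or 0.1 mg/kg replicate 2, 4 or 5 (adjusted p reached 0.0678).

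Larp1b, an RNA-binding protein, ran from 8.31 to 8.52 (median 8.39) in the low pool and from 8.04 to 8.45 (median 8.24) in the high pool, a fall of 0.18 (limma adjusted p = 0.00832) with 15 arrays below the low pool. Aldh18a1, which makes the precursor of proline, ran from 6.12 to 6.62 (median 6.52) and from 5.50 to 6.55 (median 6.02). It fell by 0.40 (adjusted p = 0.009), with 12 arrays below. The tight junction genes Cldn1 and Cldn14 each fell by 0.25 (adjusted p = 0.0242 and 0.0289). Omitting vehicle replicate 3, vehicle replicate 4 or 0.1 mg/kg replicate 5 ended the call of Cldn1 (adjusted p reached 0.0621). For Cldn14 the same held for replicates 2 to 4 of vehicle and replicates 4 and 5 of 0.1 mg/kg (0.0756). The other probe sets of Larp1b (3) and Cldn1 (2) lay at -0.18 to -0.09 and at -0.42 and -0.18, and none of these 5 was called. Eva1a, linked to autophagy, fell by 0.38 (adjusted p = 0.0167), and Tor3a, a torsin ATPase, by 0.39 (adjusted p = 0.0207); the latter rose to 0.0503 without vehicle replicate 6.

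Stretches upstream of the start of 3 of these genes are shown because each holds TGACNNNGC (capitals, or GCNNNGTCA where the match is on the opposite strand), the core of the antioxidant response element that NRF2 binds. They are from RefSeq, build GRCr8, written 5′ to 3′ on the strand of the gene. Meox2 is on the plus strand, at chr6:59583800-59583848, and rose. Cldn14 is on the minus strand, at chr11:46711794-46711842, and Tor3a on the minus strand, at chr13:71348720-71348768, and both fell. The letters begin 205, 84 and 123 bases before the start.
Meox2: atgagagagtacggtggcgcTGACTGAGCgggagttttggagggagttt
Cldn14: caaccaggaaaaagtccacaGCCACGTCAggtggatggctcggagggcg
Tor3a: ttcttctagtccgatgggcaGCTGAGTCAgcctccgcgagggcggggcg
In windows of 300 bases, from 250 before to 50 after the start, TGACNNNGC on either strand was found in 10 of the 76 genes with a called rise and a window (13.2%), in 4 of 18 with a called fall (22.2%) and in 12.2% of all 27457 windows. GCGTG, the core that the AhR and its partner bind, was found in 32 of 76 (42.1%), 10 of 18 (55.6%) and 31.1%. The share over all windows is not limited to genes measured on the arrays and is not matched for level in liver. It is therefore not a like background for the called genes, and an excess of either motif was not tested. A match is a description of letters and no sign that a protein binds there.

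The 47 probe sets that were also called at a single dose were led by targets of CAR and PXR. A probe set shared by Cyp2b-subfamily genes ran from 9.90 to 11.87 (median 11.44) in the low pool and from 13.25 to 13.83 (median 13.54) in the high pool. The pools did not overlap, and the difference was 2.32 (SE 0.128, limma adjusted p = 2.69e-14). Cyp3a23-3a1, the inducible rat Cyp3a enzyme, ran from 12.73 to 13.0027 (median 12.83) in the low pool and from 13.27 to 13.72 (median 13.42) in the high pool, again with no overlap and a rise of 0.59 (adjusted p = 2.62e-11). Ces2c, a carboxylesterase, rose by 0.92, Ugt2b1, a glucuronosyltransferase, by 0.87 and Ephx1, the microsomal epoxide hydrolase, by 0.38, each with all 18 high arrays above all 12 low arrays. Probe sets whose pools did not overlap numbered 8, or 0.0258% of those tested, and all 8 rose. The pooled-only calls held 0 such probe sets.

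Abcc3, which pumps conjugates into blood, ran from 4.58 to 6.02 (median 5.49) at low and from 5.98 to 7.09 (median 6.31) at high dose, a rise of 0.96 (SE 0.118, limma adjusted p = 5.38e-06). Por, the reductase that feeds electrons to P450 enzymes, rose by 0.45 on 1 probe set and 0.37 on the other, and its partner Cyb5a by 0.19 (adjusted p = 5.38e-06). Cyp2c6v1 rose by 0.34 and Cyp2c11, the male-specific P450, by 0.18. Outside drug metabolism, Mmgt1, a membrane magnesium transporter, rose by 0.54 and 0.56 on its probe sets and Cndp2, a dipeptidase, by 0.53. Stbd1, which binds glycogen, rose by 0.43, and Slc1a2, a pericentral glutamate transporter, by 0.43. Another probe set of Slc1a2, at -0.04, was not called. Its mean level was only 2.96, where the median of all probe sets was 5.16. Ahr itself ran from 4.11 to 5.41 (median 4.83) and from 5.07 to 6.02 (median 5.54). It rose by 0.64 (limma adjusted p = 0.00223), while its other probe set, at 0.10 and a mean level of 4.88, was not called. Ak4 fell by 0.23 (adjusted p = 0.0229). It lost its call without vehicle replicate 2 or 4 (up to 0.0568) and with each array centred on its median (0.0526), and its other probe set, at -0.18, was not called.

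Cyp1a1 and Cyp1a2 were called at single doses and not in the pooled comparison with 1 mean per pool. Cyp1a1 ran from 4.40 to 5.05 (median 4.73) in the low pool and from 4.29 to 10.06 (median 6.32) in the high pool. The high pool was split by dose, with differences from vehicle of 0.00 at 9.59, 1.63 at 95.9 and 4.72 at 959 mg/kg. The pooled difference of 2.08 had an SE of 0.556 (limma adjusted p = 0.0934), with the differences among the 3 doses counted as spread. With 1 mean for each of the 5 dose groups the same difference was called (adjusted p = 2.15e-10). Cyp1a2 differed by 0.26 (adjusted p = 0.0644), from single-dose differences of 0.06, 0.21 and 0.53. Cyp1a2 was called without 9.59 mg/kg replicate 1, 3, 4 or 5 or 95.9 mg/kg replicate 1 (adjusted p 0.0287 to 0.0488), and also in the fit with 5 means (9.59e-05). Adamts8, a secreted protease, was called at 9.59 mg/kg only (-0.34), and its pooled difference was -0.12 (adjusted p = 0.443). Its signal was low, from 2.76 to 3.43 over the 36 arrays, where the median level of all probe sets was 5.16. In all, 11 probe sets were called at a single dose and not by pooling.

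Differences inside the high pool were measured by contrasts of dose means that do not use the low arrays' means. Between 959 and 9.59 mg/kg, 2 probe sets were called (0.00644%), both of them rises: Cyp1a1 at 4.71 (95% interval 4.24 to 5.19) and Cyp1a2 at 0.47 (0.36 to 0.58). A limma F-test of any difference among the 3 doses also called 2. Of the 88 pooled-only probe sets, 0 were called and 4 had an unadjusted p under 0.05 for 959 against 9.59 mg/kg, where 6.88% of all probe sets did. The pooled fit counts differences among the 3 doses as spread, so it favours genes that are level across them, and this count is not independent of the choice. The median 95% interval of these contrasts reached 0.166 to each side. The intervals excluded 0 for Cyp4a3 (-0.19, from -0.38 to just under 0), Pemt (-0.12, -0.24 to -0.01) and Acot3 (-0.26, -0.46 to -0.05), which were lower at 959 mg/kg before adjustment. Gstm3 (-0.09, -0.36 to 0.17), Meox2 (0.04, -0.34 to 0.42) and Cyp3a9 (0.50, -0.07 to 1.08) had intervals that held 0.

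**Figure D3:**
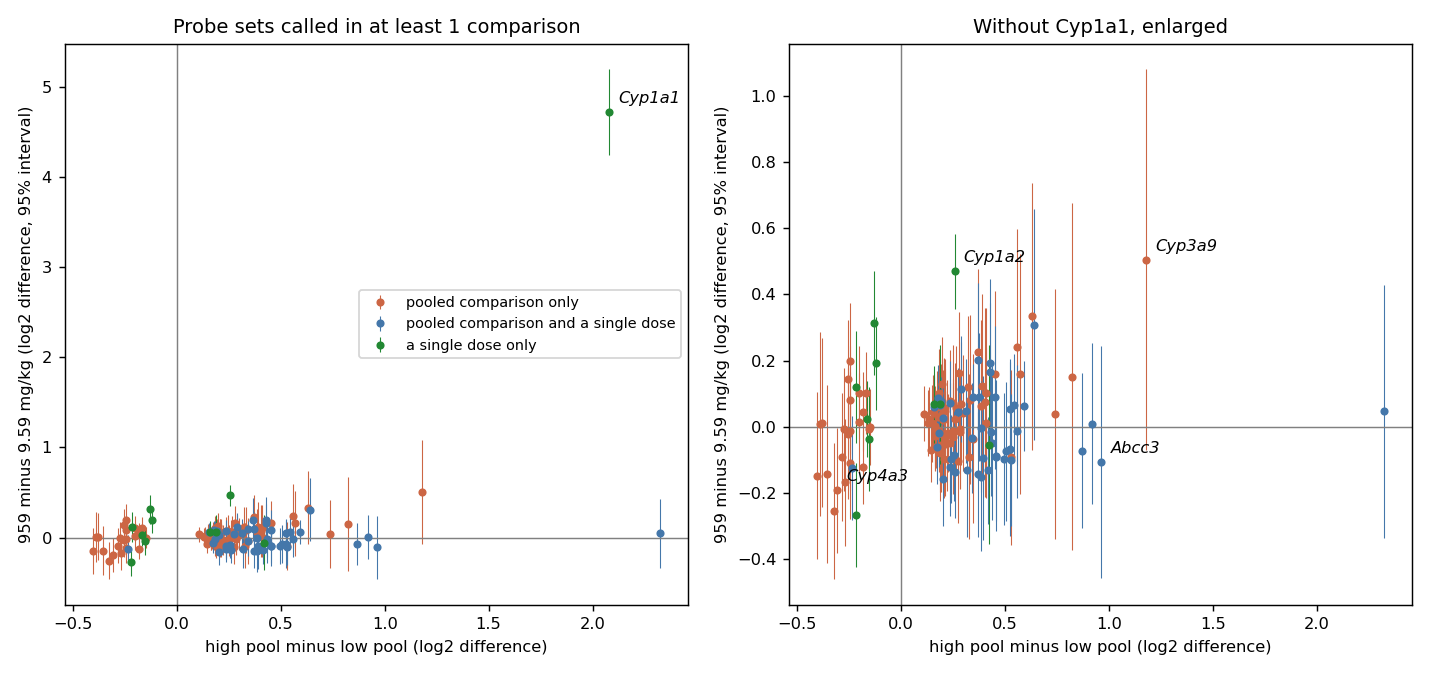
Difference between 959 and 9.59 mg/kg with its 95% interval (y axis, log2) against the high minus low pool difference (x axis, log2) for probe sets called by pooling only, by pooling and at a single dose, or at a single dose only; the right panel leaves out Cyp1a1. Cyp1a1 lies at 4.71 on the y axis and Cyp1a2 at 0.47, and Cyp3a9 at 0.50 has an interval that holds 0.

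The 2 groups of the low pool were compared in the same fit. For 0.1 mg/kg against vehicle, limma called 0 probe sets, and 1100 (3.54%) had an unadjusted p under 0.05; a fit without variance moderation also called 0. Among the 88 pooled-only probe sets, 1 had an unadjusted p under 0.05 there. Among the 47 that were also called at a single dose, 6 did. The pooled fit counts a difference between these 2 groups as spread, so neither count is independent of the choice of probe sets.

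The dose left out, 0.959 mg/kg, was set against the low pool and shares those arrays. Of all probe sets, 8 were called (0.0258%), all rises, and none of the 88 pooled-only probe sets was among them. They included Cyp3a23-3a1 at 0.40, Mmgt1 at 0.45, Cyp2c6v1 at 0.25, Ugt2b1 at 0.54 and Stbd1 at 0.42. The Cyp2b-subfamily probe set stood 1.83 above the low pool at 0.959 mg/kg. Group means of pooled-only genes at 0.959 mg/kg, none called, lay at differences of 0.34 for Gstm3, 0.72 for Cyp3a9, 0.41 for Meox2, 0.04 for Gstm4, -0.06 for Pemt, -0.22 for Gnmt, -0.20 for Larp1b and -0.02 for Fads2. They differ among genes in how near they come to the high pool, and these differences were not tested.

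**Figure D4:**
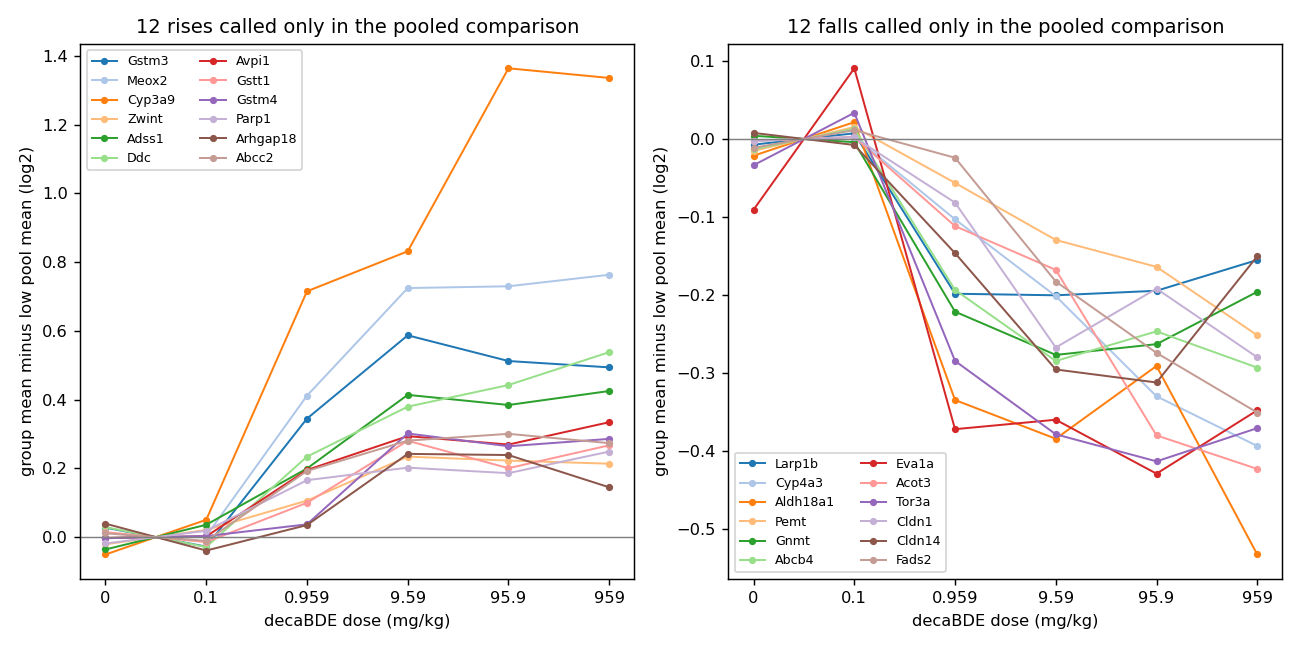
Group mean minus low pool mean (y axis, log2) by dose (x axis) for the 12 rises and 12 falls with the smallest p among genes called by pooling only, including the 0.959 mg/kg group, which entered neither pool. Cyp3a9 stands apart at 0.72 for 0.959 mg/kg, and Gstm4 lies at 0.04 there.

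Gene lists of pathways and cell types were counted in the pooled comparison, beside 0.584% of all genes rising, 0.113% falling and a median difference of 0.005. Of 26 measured CAR and PXR targets, 15 rose and 0 fell, with a median of 0.298. Of these, 5 were called by pooling only (Cyp3a9, Gstm3, Gstm4, Abcc2 and Cyp3a2). Members not called included Cyp2c7 at -0.15 and Alas1, the first enzyme of haem synthesis, at 0.38 (adjusted p = 0.12). Of 9 AhR targets, 1 rose (Ahr), with a median of 0.104. The highest of this list, Cyp1a1 at 2.08 (limma adjusted p = 0.0934), was not called with 1 mean per pool. With 1 mean for each of the 5 dose groups it was called, as given above. Of 18 NRF2 targets, 3 rose (Ephx1, Gsr and Akr7a3) and 0 fell, with a median of 0.098; Nqo1, a quinone reductase, stood at 0.54 (adjusted p = 0.15), Gclc at -0.01 and Hmox1 at -0.04. Of 14 genes listed under haem synthesis and electron transfer to P450, 3 rose (Por, Cyb5a and Blvrb). Blvrb, which reduces biliverdin, has neither function. Lists share members, so their counts are not independent. Ephx1 counts among CAR and PXR targets, NRF2 targets and p53 and DNA damage genes.

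Lists of lipid and intermediary metabolism held fewer calls. Of 29 PPARA targets, 1 rose (Cyp4a8) and 2 fell (Cyp4a3 and Acot3), and the median was -0.127. Without 0.1 mg/kg replicate 6, 1 rose and 3 fell. Uncalled members were Cpt1a, the gate of mitochondrial fatty acid oxidation, at -0.36 (adjusted p = 0.27), Acot4 at -0.35 (0.067) and Pdk4 at 0.16 (0.79). Of 19 genes of one-carbon, choline and methionine metabolism, 2 fell (Gnmt and Pemt), and the median was -0.025. Of 20 genes of fatty acid and triglyceride synthesis, 1 fell (Fads2), and of 20 genes of bile acid synthesis and transport, 1 fell (Abcb4). Of 19 cholesterol synthesis genes and 11 genes of gluconeogenesis and fasting, 0 were called, with medians of -0.000 and -0.121. In the latter list 10 of the 11 differences were below 0. Of 15 genes of thyroid hormone handling and response, 1 rose (Ugt2b1).

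Of 30 proteasome subunits, 1 rose (Psmd8, at 0.18), and the median was 0.068. All 30 differences were above 0, from 0.01 to 0.18, where 53.1% of all genes had a difference above 0. After a repeated quantile normalization 27 were above 0, from -0.01 to 0.14, and Psmd8 was not called. Psmd8 also lost its call with 0.1 mg/kg alone as the low pool, without 9.59 mg/kg and without 95.9 mg/kg. Of 37 cell cycle genes, 1 rose (Kif11), with a median of 0.203; Ccnb2 at 0.57 (adjusted p = 0.098) and Mki67 at 0.43 (0.12) were not called. Of 18 p53 and DNA damage genes, 2 rose (Gadd45b and Ephx1), of 22 acute-phase genes 1 (Crp), of 17 growth hormone and male-specific genes 2 (Cyp2c11 and Cyp3a2), and of 14 pericentral markers 1 (Slc1a2). Lists of endoplasmic reticulum chaperones, ATF4 targets, heat shock, ribosomal proteins, oxidative phosphorylation, mitochondrial and peroxisomal dynamics, urea cycle, complement and coagulation, interferon response, circadian clock and nuclear receptors held 0 calls each.

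Markers of other liver cells held 0 calls in either direction. The 20 stellate cell and fibroblast markers had a median of 0.193, with 18 above 0, and their summed log2 level ran from 144.7 to 155.1 in low arrays and from 146.9 to 162.7 in high arrays. Without 0.1 mg/kg replicate 6, 1 of them rose. The 9 cholangiocyte markers had a median of 0.098 (summed levels 58.7 to 62.1 and 59.3 to 65.1), and 18 lymphocyte markers of -0.082 (85.1 to 93.8 and 85.6 to 91.8). All 9 cholangiocyte differences were above 0, and 17 of the 18 lymphocyte differences were below 0. Signals were low in many of these: 11 of the 18 lymphocyte and 3 of the 9 cholangiocyte markers lay below the median level of all probe sets (5.16). The 14 periportal markers had a median of -0.086 (148.7 to 152.1 and 148.2 to 154.3), with 12 below 0. Kupffer cell, endothelial, neutrophil, erythroid, pancreas, and adipose and muscle marker lists had medians from -0.032 to 0.017. The pools overlapped in the summed level of each list, and the part of these cell types in the results above was not tested.

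**Figure D5:**
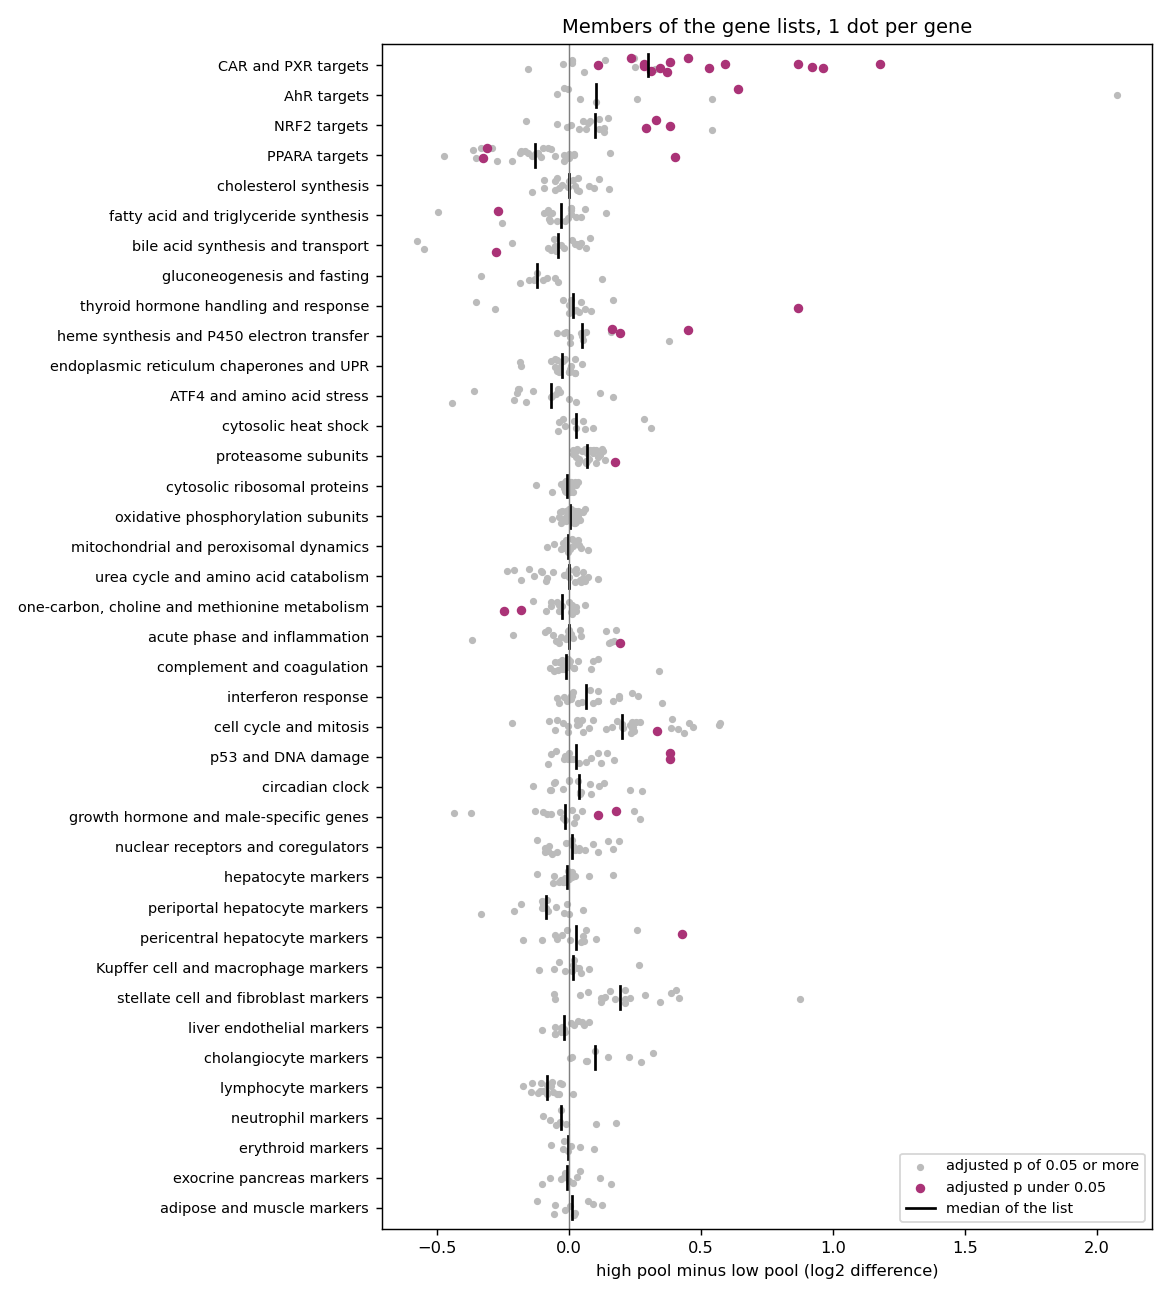
High minus low pool difference (x axis, log2) of each measured member of the 39 gene lists (y axis), with called genes in purple, others in grey and each list's median as a black line. CAR and PXR targets hold 15 called rises, and their median of 0.298 is the highest of the lists.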

How the data were processed

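The authors deposited log2 RMA signals (background correction, quantile normalization and summary per probe set), per the submitters' processing notes made with affy, whose version is not given in the sources used here. Values ran from 2.02 to 15.0 with none missing. The 57 array control probe sets among 31099 were not tested. In the array annotation, 20826 of the rest have 1 gene symbol, 436 have several and 9780 have none; no gene is named from several symbols.

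For the main result, lmFit and eBayes of limma 3.58.1 (R 4.3.3) fitted 1 mean per pool to the 30 arrays, with 28 residual degrees of freedom and 5.1 prior ones; tests were two-sided. Single doses and 0.959 mg/kg came from 1 fit with a mean for each of the 6 groups on all 36 arrays, and contrasts inside the pools from 1 with 5 means on the 30 arrays. Benjamini-Hochberg adjustment ran over the 31042 probe sets, and the threshold of 0.05 equals the false discovery rate (5%) in the design text of the series. The package named there is maanova, which was not used here. SE is limma's standard error. The RNA quality test used 100000 resamples. The number of arrays limits the precision. Scripts were tested on simulated data.

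Named genes (1 probe set a gene, the brightest) were up to 12 rises and 12 falls with the smallest p among pooled-only calls, 5 and 5 among those also called at a single dose, 3 called members per list, 5 called per further contrast, and 10 genes whatever their values; others (Gne, Tinf2, glutathione S-transferases beyond these, uncalled list members) were chosen after their values were seen. The pools, the 39 lists and this rule were chosen with earlier results of these data known. Replicate numbers gave no sign of pairing the arrays. Same-numbered arrays of different groups had a mean correlation of -0.0175 in their deviations from group means, with 8 of 60 pairs over 0.1. Other-numbered arrays had a mean of 0.00355, with 44 of 300 pairs over 0.1. Alternatives covered normalization, filters, variance models, pool membership, the replicate block and each array left out.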

Additional observations from a re-analysis of the deposited data

Results flagged for a closer look

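In 11 of 306 groups of 6 arrays tested (3.59%, where chance gives about 1 in 20), the highest or lowest array of a named gene stood apart from the others by Dixon's criterion. High arrays were 95.9 mg/kg replicate 3 for Abcc3 (6.74, next 6.32), 9.59 mg/kg replicate 2 for Parp1 (9.26, next 9.04), 95.9 mg/kg replicate 4 for Cyp3a2 (14.29, next 14.19), 0.1 mg/kg replicate 4 for Adamts8 (3.20, next 3.06), 9.59 mg/kg replicate 5 for Aldh18a1 (6.55, next 6.10) and vehicle replicate 1 for Mmgt1 (10.03, next 9.75). Low arrays were 959 mg/kg replicate 2 for Ugt2b1 (12.83, next 13.31) and for Ak4 (9.52, next 9.85), vehicle replicate 2 for Adss1 (6.52, next 7.19), 0.1 mg/kg replicate 1 for Acot3 (6.02, next 6.42) and 9.59 mg/kg replicate 4 for Larp1b (8.04, next 8.22). Parp1, Adss1, Acot3, Larp1b, Aldh18a1, Abcc3, Ugt2b1 and Mmgt1 kept their calls without each of these arrays. Cyp3a2 lost its call without 95.9 mg/kg replicate 4 (adjusted p = 0.0661). Ak4 kept its call without 959 mg/kg replicate 2, and Adamts8 was not called in the pooled comparison.

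The effects of 959 and 9.59 mg/kg differed, by limma's contrast of the doses, for Cyp1a1 (4.71) and Cyp1a2 (0.47).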

How the results depend on the processing

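Counts changed with the make-up of the pools. Vehicle alone as the low pool gave 57 calls and 17 pooled-only calls, and 0.1 mg/kg alone 22 and 6. Both have fewer arrays. The 57 comprised 56 rises and 1 fall, and the 22 comprised 20 rises and 2 falls. Leaving out 95.9 mg/kg gave 61 (57 rises and 4 falls) and 20, and leaving out 9.59 mg/kg gave 51 pooled-only calls. Adding 0.959 mg/kg to the low pool gave 84 and 43. An adjusted p under 0.01 left 66 (63 rises and 3 falls) and 27. Leaving out probe sets under the median level, which makes fewer tests, gave 207 and 138. Of the 88 pooled-only probe sets, 32 were also called neither by an F-test over all doses nor by a line in dose rank. With each array left out in turn, calls ran from 104 (without 0.1 mg/kg replicate 4) to 173 (without 0.1 mg/kg replicate 6) and pooled-only calls from 59 to 117, the same arrays at the ends. Other normalizations, variance models, array weights, 5 or 6 group means and the actin covariate gave 119 to 183 calls and 72 to 121 pooled-only calls. With the replicate number as a block there were 118 and 76 calls, and 5 at 0.959 mg/kg against the low pool. No called named gene changed sign in any of 2302 values, and 229 of these lost the call. With each array left out, 39 of 48 kept it. These genes were called in this comparison and the alternatives share most of its arrays. The constant sign was therefore largely set beforehand and is not separate evidence for the shifts. The cause of the other changes was not tested.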

Other observations

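Further genes called by pooling only, chosen after their values were seen, had these log2 differences between the high and low pools by limma, each with an adjusted p under 0.05. Cers6, a ceramide synthase, rose by 0.57 and Mid1, a ubiquitin ligase, by 0.63. The tubulin-binding protein Stmn1 rose by 0.39 and mitochondrial Idh2, which makes NADPH, by 0.20. Nedd8, a ubiquitin-like protein, rose by 0.13, Sumo3 by 0.15 and Psmd9 by 0.20. The call of Gne (-0.35, adjusted p = 0.0489) was lost without 0.1 mg/kg replicate 6, at 0.0751.

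Among probe sets called both by pooling and at a single dose, 4 carried Vav2, a guanine nucleotide exchange factor, and rose by 0.34, 0.37, 0.42 and 0.49. The amyloid precursor gene App rose by 0.43, 0.45 and 0.53 on 3 probe sets.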
